A study of Mus musculus with 12 samples.

Results

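The S100 genes encode small calcium-binding proteins, and 10 of them, S100a1, S100a4, S100a6, S100a8, S100a9, S100a10, S100a11, S100a13, S100a14 and S100a16, were followed by gene symbol in a count table of 57278 entries, 92 of them spike-in sequences without a gene name. RNA came from 3 DDKC tumor cell lines, labelled DDKC_9750, DDKC_9790 and DDKC_9804, each untreated or treated with rDKK3, a recombinant form of the secreted protein DKK3. All lines derive from pancreatic tumors of Dkk3 knockout mice that also carry Ptf1aCre/+, in which Cre is driven by Ptf1a in the pancreas and the Dkk3 knockout allele, made by replacing exon 2 of the gene, is not restricted to a cell type. The untreated cells, which served as controls, thus carry the same alleles as the treated ones, and were grown in serum-containing medium. The dose and duration of rDKK3 for these libraries are not given in the sources used here, nor whether each line came from a separate mouse. Each line and condition was sequenced in 2 libraries, 12 in all, and the comparisons are between lines and between treated and untreated cells.

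S100 proteins form dimers that change shape on binding calcium and then engage target proteins. Inside cells they bind annexins, non-muscle myosin and other partners, and several are released and act on receptors such as RAGE (Ager), Tlr4 and Bsg. Most S100 genes lie next to each other on mouse chromosome 3, in the epidermal differentiation region. S100A4 is known for its links to motility and metastasis, S100A6, S100A10, S100A11, S100A14 and S100A16 are common in epithelial and carcinoma cells, and S100A8 and S100A9 form calprotectin, an abundant protein of neutrophils.

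On GRCm39, the build of the counts, the 10 genes fall into 2 stretches of chromosome 3. S100a1 (chr3:90418341-90421699, minus strand) and S100a13 (chr3:90421742-90431888, plus strand) stand head to head. They are followed by S100a14 (chr3:90434163-90436144), S100a16 (chr3:90444561-90450458), S100a4 (chr3:90511078-90513352), S100a6 (chr3:90520189-90531488) and S100a8 (chr3:90576285-90577342), all on the plus strand, and by S100a9 (chr3:90599939-90603028) on the minus strand. S100a11 (chr3:93427795-93433594) and S100a10 (chr3:93462387-93471950) lie farther along the chromosome, both on the plus strand. Their best supported transcripts have 3 or 4 exons and, within the bounds of the counted gene models, are 486 to 1130 bases long.

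Promoter sequences of RefSeq, 250 bases before to 50 bases after a gene start on GRCm38.p6, were matched by symbol for 8 of the 10 genes, all but S100a10 and S100a14, in 9 windows. The windows of S100a1 and S100a13 are shown because these genes had the highest correlation of levels of any pair, and S100a4 and S100a11 because they had the largest difference with rDKK3 and the largest difference between library series, respectively. Capitals mark the 204 bases shared by the S100a1 and S100a13 windows, which are read from opposite strands and whose starts are 105 bases apart, a TATAAA match in S100a4, and TGAGTCA matches in S100a11. Their coordinates are chr3:90514281-90514580 (minus strand) for S100a1, chr3:90514185-90514484 for S100a13, chr3:90603520-90603819 for S100a4 and chr3:93520246-93520545 for S100a11.
S100a1: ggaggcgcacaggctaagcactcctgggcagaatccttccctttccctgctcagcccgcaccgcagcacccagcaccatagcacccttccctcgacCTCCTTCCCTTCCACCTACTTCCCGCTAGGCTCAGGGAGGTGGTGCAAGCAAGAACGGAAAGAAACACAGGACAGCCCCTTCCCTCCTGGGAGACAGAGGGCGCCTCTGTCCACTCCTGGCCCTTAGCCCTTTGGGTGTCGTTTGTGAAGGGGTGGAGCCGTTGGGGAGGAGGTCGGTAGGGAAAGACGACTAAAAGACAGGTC
S100a13: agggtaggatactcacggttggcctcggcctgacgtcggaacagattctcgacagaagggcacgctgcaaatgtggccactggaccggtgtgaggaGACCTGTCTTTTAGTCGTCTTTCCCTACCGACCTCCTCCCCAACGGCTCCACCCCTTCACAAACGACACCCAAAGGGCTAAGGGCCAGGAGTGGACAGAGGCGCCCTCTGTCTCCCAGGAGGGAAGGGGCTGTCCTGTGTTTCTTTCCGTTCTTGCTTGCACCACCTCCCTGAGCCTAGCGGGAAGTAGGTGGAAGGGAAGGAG
S100a4: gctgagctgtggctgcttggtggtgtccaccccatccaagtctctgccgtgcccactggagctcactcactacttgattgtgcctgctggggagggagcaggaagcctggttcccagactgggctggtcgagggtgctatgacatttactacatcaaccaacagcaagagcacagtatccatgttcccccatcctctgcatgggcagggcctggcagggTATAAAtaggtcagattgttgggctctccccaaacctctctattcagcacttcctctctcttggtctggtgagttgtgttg
S100a11: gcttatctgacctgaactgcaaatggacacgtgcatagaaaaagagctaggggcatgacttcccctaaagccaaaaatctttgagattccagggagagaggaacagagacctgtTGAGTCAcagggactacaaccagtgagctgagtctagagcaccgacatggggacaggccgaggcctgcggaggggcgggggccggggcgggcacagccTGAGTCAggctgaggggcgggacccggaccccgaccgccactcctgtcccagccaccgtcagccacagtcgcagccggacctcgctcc

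In S100a4 the TATAAA match begins 31 bases before the start. The same letters began 30 bases before the start in the window of S100a8 and at the start itself in that of S100a9. They were found in 13.6% of all 32851 RefSeq windows of this length, searched on both strands. The AP-1 letters TGANTCA were found at 2 places in S100a11, beginning 136 and 38 bases before its start, and once in 1 of the 2 S100a16 windows, against 7.81% of all windows. The STAT letters TTCNNNGAA were in none of the 9 windows and in 8.3% of all. No matches of different motifs overlapped in the 9 windows, and a match to such letters is a description of the sequence only.

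Library totals were 7520741 to 24541083 counts for untreated cells and 3822987 to 11567095 for rDKK3-treated cells (6 libraries each), and 3 counts, the least taken as detection, corresponded to 0.127 to 0.755 CPM (counts scaled to a common library total, here with TMM factors). Within a line and condition, the 2 libraries differed by less than sampling noise once a shift common to all libraries of the higher library numbers was allowed for (deviance per degree of freedom 0.764 over 12979 genes, and 6.39 without the shift), although the highest value of an S100 gene was 2.78. They were therefore summed and counted as 1 sample, which leaves 3 lines against 3. The labels do not say whether they came from separate cultures. Dkk3 had 1 count in 1 of the 12 libraries. Among markers of other cell types, Krt8, Krt18 and Krt19 (keratins of duct cells) were at 784 to 3568 CPM in every summed sample, Epcam at 0.411 to 2.04 CPM, and of 10 myeloid and neutrophil markers 5 were at 0, Ptprc, Itgam and Ly6g had 1 to 7 counts in all, and Csf1r and Cd68 were at 5.81 to 10.3 and 2.03 to 38.1 CPM.

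Of the 10 S100 genes, 8 were expressed above the filter on low counts and S100a6 led in every sample. Summed over the family, transcripts amounted to 1941 to 3244 CPM in untreated and 1214 to 2457 CPM in rDKK3-treated lines. S100a6, known as calcyclin, made up 43.3 to 62.3% of this sum and S100a11 17.3 to 28.7%. S100a8 and S100a9 were below the detection limit of 3 counts in every library. S100a8 had 1 count in 1 untreated and 1 count in 1 treated library of line DDKC_9804, S100a9 had 1 count in each treated library of line DDKC_9750, and all other libraries had 0. No difference in these 2 genes was detectable at this depth.

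Levels of different genes were compared per kilobase of transcript, leaving out S100a4. Of its 498-base transcript, 302 bases (60.6%) are shared on the same strand with Gm42674, a gene model with 0 counts, and the authors' counting mode drops reads that fall on 2 features. If this applied between genes, 196 bases of S100a4 could collect reads. On this scale S100a6 was first and S100a11 second in all 6 summed samples, with 770 to 2368 and 572 to 1351 CPM per kilobase. S100a10, which pairs with annexin A2 at the plasma membrane, followed with 204 to 655 CPM per kilobase, and S100a16 had 47.9 to 339. These 2 genes overlapped and held ranks 3 to 5, with S100a1 (40.3 to 192) at rank 4 or 5. S100a13 was sixth throughout (16.2 to 119), and S100a14 ranged from 0.271 to 90.1. Replacing TMM scaling by plain totals cannot move these ranks, since either divides all genes of a sample by the same factor.

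**Figure D1:**
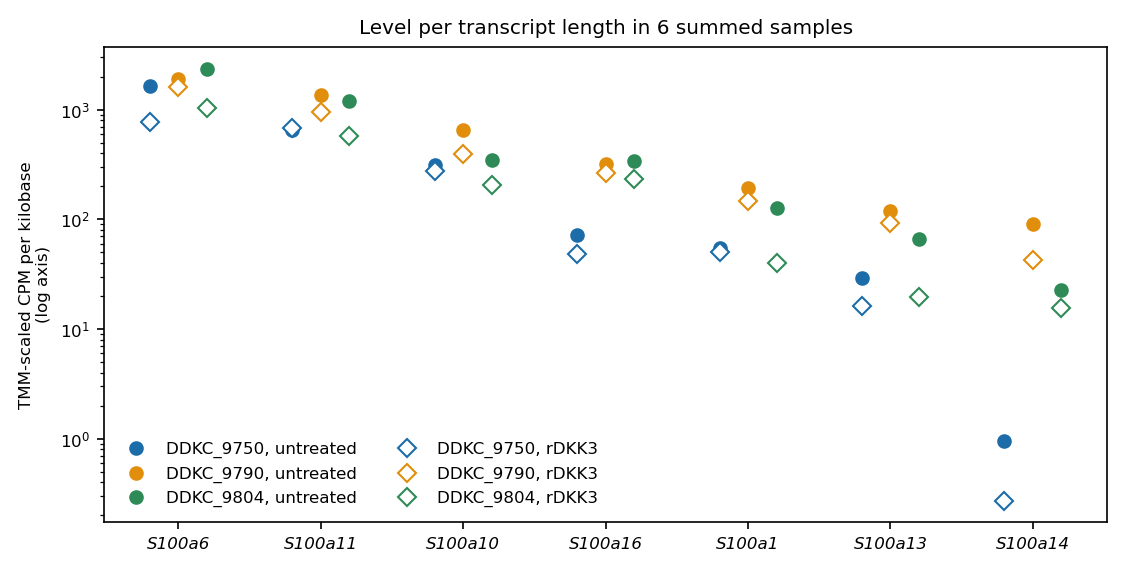
TMM-scaled CPM per kilobase of transcript (log axis) of 7 S100 genes in the 6 summed samples, coloured by line, filled for untreated and open for rDKK3. S100a6 lies above S100a11 in every sample, and S100a14 spans from 0.271 in treated line DDKC_9750 to 90.1 in untreated line DDKC_9790.

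The lines differed in 5 of the 8 S100 genes, and in all 5 line DDKC_9790 had the highest mean level. For S100a16 and S100a1 that level was not distinguishable from that of line DDKC_9804. Across all genes, the same test (edgeR's quasi-likelihood F test of line on summed counts, with treatment in the model) called 5348 of 15165 genes, or 35.3%. S100a14, S100a16, S100a13, S100a10 and S100a1 passed, whereas S100a6, S100a11 and S100a4 did not. The plot of all libraries shows these levels.

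**Figure D2:**
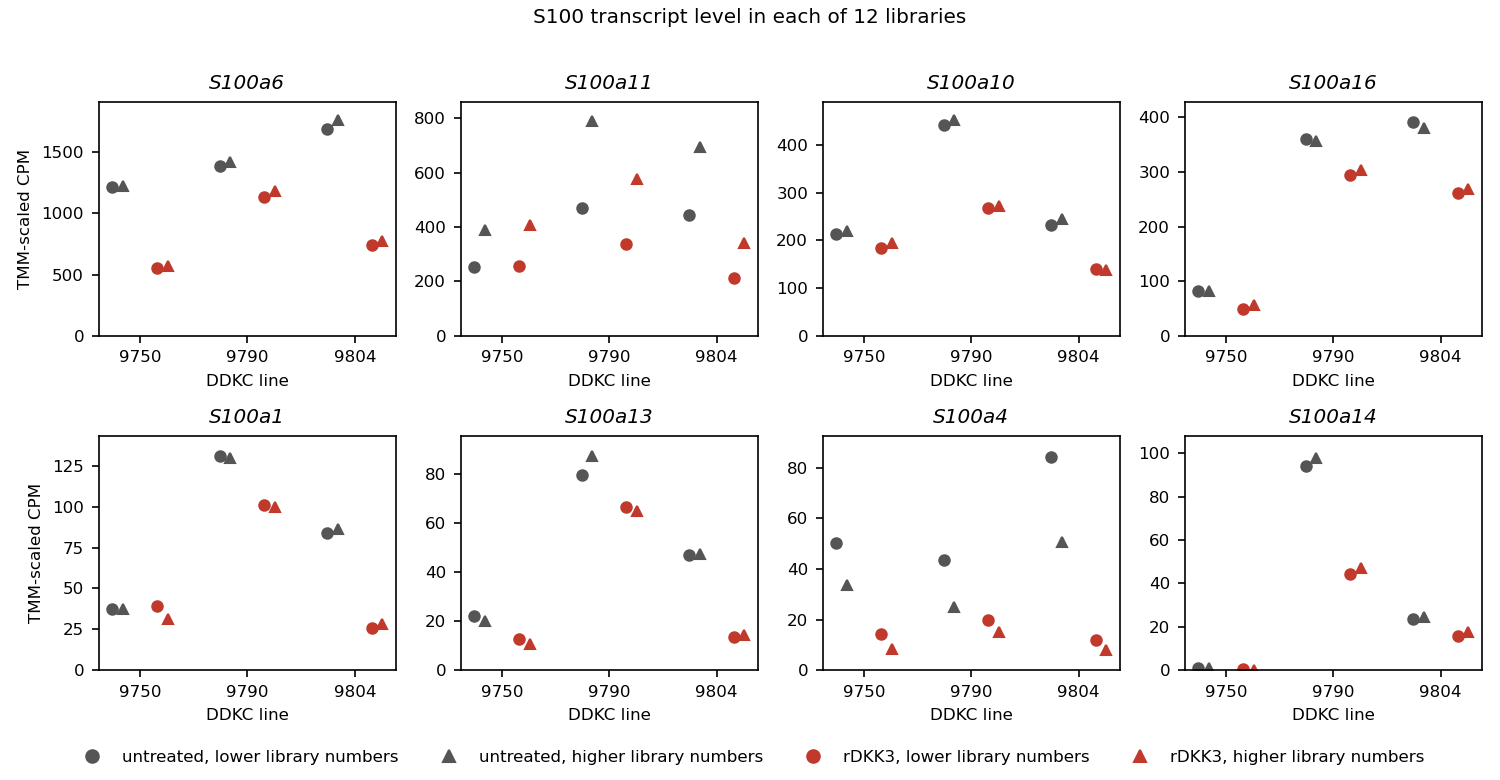
TMM-scaled CPM of 8 S100 genes (1 panel each, axes from 0) in each of the 12 libraries by line, grey for untreated and red for rDKK3, circles for lower and triangles for higher library numbers. S100a14 is near 0 in line DDKC_9750, and S100a11 triangles lie above the circles in every line and condition.

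S100a14, an epithelial S100 protein that can be released and bind RAGE, differed most. In the untreated libraries it was at 0.875 and 1.14 CPM in line DDKC_9750, 94.0 and 97.96 in line DDKC_9790, and 23.5 and 24.5 in line DDKC_9804. With rDKK3 it was at 0.503 and 0.158 CPM in line DDKC_9750, 44.1 and 47.0 in line DDKC_9790, and 15.5 and 17.4 in line DDKC_9804. The lines did not overlap in either condition, and the levels of line DDKC_9750 rested on 34 counts in all, 31 of them untreated. In edgeR's test S100a14 was higher in line DDKC_9790 than in line DDKC_9750 by 6.63 ± 0.32 (log2, SE, adjusted p = 0.00197), in line DDKC_9804 than in line DDKC_9750 by 4.89 ± 0.31 (adjusted p = 0.00231), and differed by -1.74 ± 0.23 between lines DDKC_9804 and DDKC_9790 (adjusted p = 0.011). These 3 comparisons of lines called 27.0%, 18.5% and 21.3% of all genes, respectively.

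S100a16, a broadly expressed family member, was low in the same line. Untreated libraries had 82.2 and 82.2 CPM in line DDKC_9750, 361 and 356 in line DDKC_9790, and 391 and 380 in line DDKC_9804. Line DDKC_9790 exceeded line DDKC_9750 by 2.30 ± 0.16 (log2, edgeR adjusted p = 0.00356) and line DDKC_9804 exceeded it by 2.26 ± 0.16 (adjusted p = 0.00284). Lines DDKC_9790 and DDKC_9804, its neighbours in the order, did not differ beyond their spread (-0.04 ± 0.15, adjusted p = 0.853). Over the 6 summed samples, the log2 CPM of S100a14 and S100a16 correlated with r = 0.969, a description of 3 lines in 2 conditions that share their libraries.

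S100a13, which assists the export of Fgf1 and Il1a, and its head-to-head neighbour S100a1, best known from heart and skeletal muscle, were highest in line DDKC_9790. Untreated libraries had 22.2 and 20.01 CPM of S100a13 in line DDKC_9750, 79.5 and 87.3 in line DDKC_9790, and 47.2 and 47.5 in line DDKC_9804. For S100a1 the values were 37.6 and 37.5, 131 and 130, and 83.8 and 86.4 CPM in the same order. S100a13 was higher in line DDKC_9790 than in line DDKC_9750 by 2.31 ± 0.35 (log2, edgeR adjusted p = 0.0134), and lower in line DDKC_9804 than in line DDKC_9790 (-1.50 ± 0.34, adjusted p = 0.0377). Lines DDKC_9750 and DDKC_9804 did not pass the threshold (0.81 ± 0.35, adjusted p = 0.164). S100a1 separated line DDKC_9790 from line DDKC_9750 (1.67 ± 0.38, edgeR adjusted p = 0.0332), but line DDKC_9804 from neither line DDKC_9750 (adjusted p = 0.40) nor line DDKC_9790 (adjusted p = 0.0861). The 2 genes had the highest correlation of any S100 pair (r = 0.977 over 6 summed samples), and their reads were counted by strand. The S100a1 transcript aligns over 195 bases at 100% identity with S100a13 transcripts of GENCODE M39 that reach across it on the opposite strand, although the bounds of the 2 counted genes do not overlap.

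S100a10 was the fifth gene called between lines. Untreated libraries had 214 and 219 CPM in line DDKC_9750, 442 and 452 in line DDKC_9790, and 231 and 244 in line DDKC_9804. Line DDKC_9790 was higher than line DDKC_9750 (0.77 ± 0.20, log2, edgeR adjusted p = 0.0415) and line DDKC_9804 lower than line DDKC_9790 (-0.93 ± 0.20, adjusted p = 0.0305), with no difference beyond the spread between lines DDKC_9750 and DDKC_9804 (-0.16 ± 0.20, adjusted p = 0.60). For the remaining genes, edgeR's line test gave adjusted p = 0.17 for S100a11, 0.187 for S100a6 and 0.788 for S100a4, whose fitted differences between lines were at most 0.73, 0.66 and 0.33 (log2), respectively. The lowest and highest S100a6 values in untreated cells were 1210 CPM in line DDKC_9750 and 1731 CPM in line DDKC_9804.

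With rDKK3, all 8 expressed S100 genes had lower fitted levels, and 7 of them were lower in each of the 3 lines. Of all 15165 genes tested, 18.2% were lower in all lines. The fitted log2 differences ran from -1.80 for S100a4 to -0.46 for S100a16, with a median of -0.78 against -0.01 over all genes. The largest relative difference was in S100a4 and the largest in CPM was in S100a6. In bulk RNA, fewer cells that express a gene and less RNA per cell cannot be told apart.

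None of the 8 passed the test on summed counts. With line and treatment as terms, edgeR's quasi-likelihood fit gave adjusted p = 0.578 to 0.613 for the S100 genes and called 1 gene of 15165 (0.00659%), Lcn2, which was higher with rDKK3, and none lower (0%). Unadjusted, 6 of the 8 S100 genes and 1294 of all genes had p under 0.05. An exact permutation test over 3 paired lines cannot go below 0.25. When the 12 libraries were taken as separate samples, edgeR called 7 of the 8 lower, all but S100a11, against 10.1% of all genes called lower and 7.95% higher, but these p-values measure mainly the spread between libraries that may be technical. With the library number series as a further covariate all 8 were called lower, against 11.9% of all genes. DESeq2 on summed counts called S100a4 and S100a6 lower, against 0.602% of 11637 genes with an adjusted p.

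**Figure D3:**
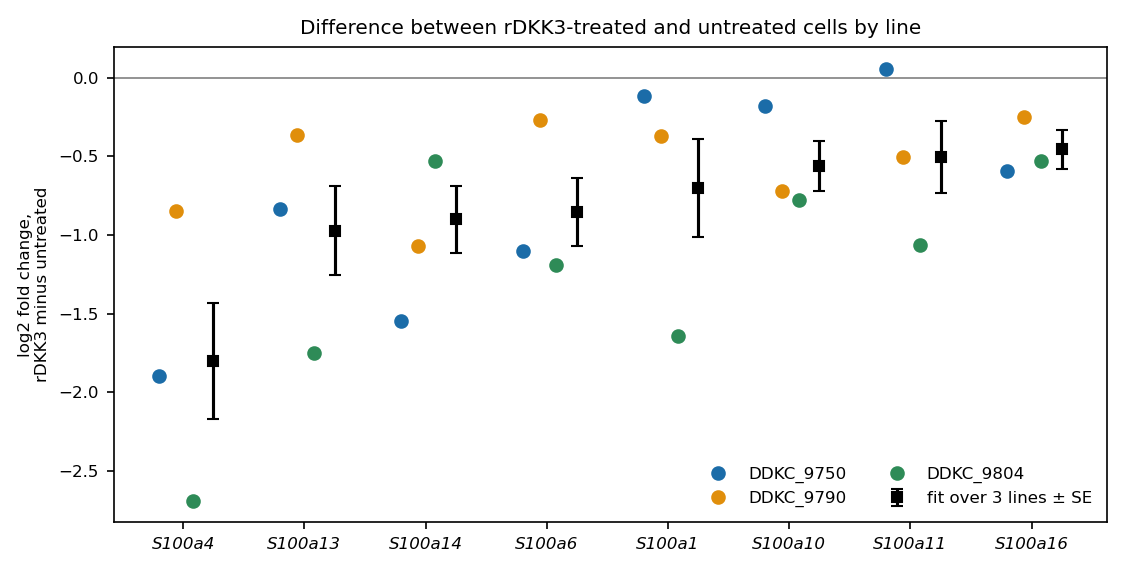
Log2 fold change of rDKK3-treated against untreated cells for 8 S100 genes, coloured points for each line (summed counts, log2 CPM) and black squares with SE for edgeR's fit over 3 lines. All squares lie below 0, between -1.80 and -0.46, and S100a11 in line DDKC_9750 (0.06) is the one point above 0.

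S100a4, the metastasin that binds non-muscle myosin, was lower in every treated library than in any untreated one. Untreated libraries had 50.2 and 33.5 CPM in line DDKC_9750, 43.4 and 24.99 in line DDKC_9790, and 84.4 and 50.8 in line DDKC_9804. The treated ones had 14.3 and 8.23, 19.7 and 15.2, and 11.9 and 7.98 CPM in the same order. Over the 3 lines the mean was 43.9 ± 15.8 CPM (SD, n = 3) untreated and 12.4 ± 4.09 with rDKK3. Treated levels were 0.267 of the untreated in line DDKC_9750, 0.555 in line DDKC_9790 and 0.154 in line DDKC_9804. The fit gave -1.80 ± 0.37 (log2, SE). Its adjusted p was 0.578 with edgeR on summed counts and 0.000917 with DESeq2, the lowest of its alternatives, which reached 1 without the line in the model, and reads of this gene may have come from 196 bases only.

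S100a6, the most abundant member and an interactor of the Cacybp and annexin proteins, also did not overlap between conditions. Untreated libraries had 1214 and 1222 CPM in line DDKC_9750, 1384 and 1415 in line DDKC_9790, and 1684 and 1759 in line DDKC_9804. Treated libraries had 556 and 568, 1135 and 1180, and 744 and 771 CPM. The means were 1449 ± 263 CPM (SD, n = 3) untreated and 830 ± 309 with rDKK3, and line DDKC_9790 differed least, with a treated level 0.832 of the untreated against 0.466 and 0.439 in lines DDKC_9750 and DDKC_9804. The fitted difference was -0.85 ± 0.22 (log2), with an adjusted p of 0.578 in edgeR on summed counts and 0.0233 in DESeq2 (0.00208 to 1 over its alternatives). Lines without overlap and lower with rDKK3, as for these 2 S100 genes, were found for 2.10% of all genes.

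S100a1 and S100a13 had their largest differences in line DDKC_9804, without which the fitted difference was -0.25 for S100a1 and -0.59 for S100a13 (log2). S100a1 was at 83.8 and 86.4 CPM in untreated and 25.7 and 28.3 CPM in treated libraries of that line, whereas line DDKC_9750 had 37.6 and 37.5 against 39.3 and 31.5, and line DDKC_9790 131 and 130 against 101 and 99.6. S100a13 had 47.2 and 47.5 against 13.4 and 14.4 CPM in line DDKC_9804, 22.2 and 20.01 against 12.8 and 10.8 in line DDKC_9750, and 79.5 and 87.3 against 66.6 and 64.9 in line DDKC_9790. In both genes the treated levels of line DDKC_9790 exceeded the untreated levels of line DDKC_9750, so the conditions overlapped across lines. The fitted differences were -0.70 ± 0.31 for S100a1 and -0.97 ± 0.28 for S100a13 (log2, SE), and edgeR's adjusted p ranged from 0.0406 to 1 and from 0.0071 to 1 over the alternatives.

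S100a14 was lower by about its fitted -0.90 ± 0.21 (log2) in line DDKC_9790, from 94.0 and 97.96 to 44.1 and 47.0 CPM, and less so in line DDKC_9804, from 23.5 and 24.5 to 15.5 and 17.4 CPM. In line DDKC_9750 it went from 31 to 3 counts, a treated level 0.283 of the untreated with a 95% exact counting interval of 0.0553 to 0.906. S100a16 had the smallest fitted difference (-0.46 ± 0.12), at 50.1 and 56.8 CPM with rDKK3 in line DDKC_9750, 295 and 303 in line DDKC_9790, and 262 and 268 in line DDKC_9804. All of these were below the untreated libraries of the same line.

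S100a10 was at 184 and 195 CPM with rDKK3 in line DDKC_9750, 267 and 272 in line DDKC_9790, and 141 and 139 in line DDKC_9804, and its fitted difference was -0.56 ± 0.16 (log2). S100a11, which takes part in membrane repair and keratinocyte growth control, was the exception among lines. In line DDKC_9750 it had 252 and 390 CPM untreated and 255 and 408 with rDKK3, in line DDKC_9790 468 and 791 against 337 and 576, and in line DDKC_9804 445 and 694 against 212 and 343. Its fitted difference was -0.51 ± 0.23 (log2), and -0.22 without line DDKC_9804.

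The S100a11 values also show the shift between library series. Libraries of the higher numbers had 1.61 times the S100a11 level of the lower ones (median of 6 pairs, log2 0.63 to 0.77), in treated and untreated cells alike. S100a4 was shifted the other way, to 0.633 times (log2 -0.80 to -0.38), while the median shift of the other 6 genes lay between -0.01 and 0.08. Over all tested genes the median size of the shift was 0.07. Both conditions of every line hold 1 library of each series. S100a11 also has gene copies with up to 99% identity in the transcript, among them Gm7665 with 410, Gm57150 with 339 and Gm12854 with 267 counts in all libraries against 63729 for S100a11 itself, and its reads may have been split with them.

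Short transcripts as a class had lower fitted values with rDKK3, and the S100 transcripts are short. Of 12362 tested protein-coding genes with a transcript length, 822 had transcripts of up to 1130 bases, the length of the longest S100 member tested. Their median log2 difference was -0.24, against 0.00 for longer ones. Of the short ones 44.9% were lower in all 3 lines, compared with 17.3% of the longer ones, 26.0% were called lower over 12 libraries (10.6% of the longer), 1.80% of those with an adjusted p were called lower by DESeq2, and 8.03% did not overlap between conditions (1.74% of the longer). All 8 S100 genes lay below the median of the short transcripts. Treated libraries were also shallower (median total 6579895.5 counts, against 14250180 untreated). The part of transcript length or RNA quality in the S100 differences was not tested.

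**Figure D4:**
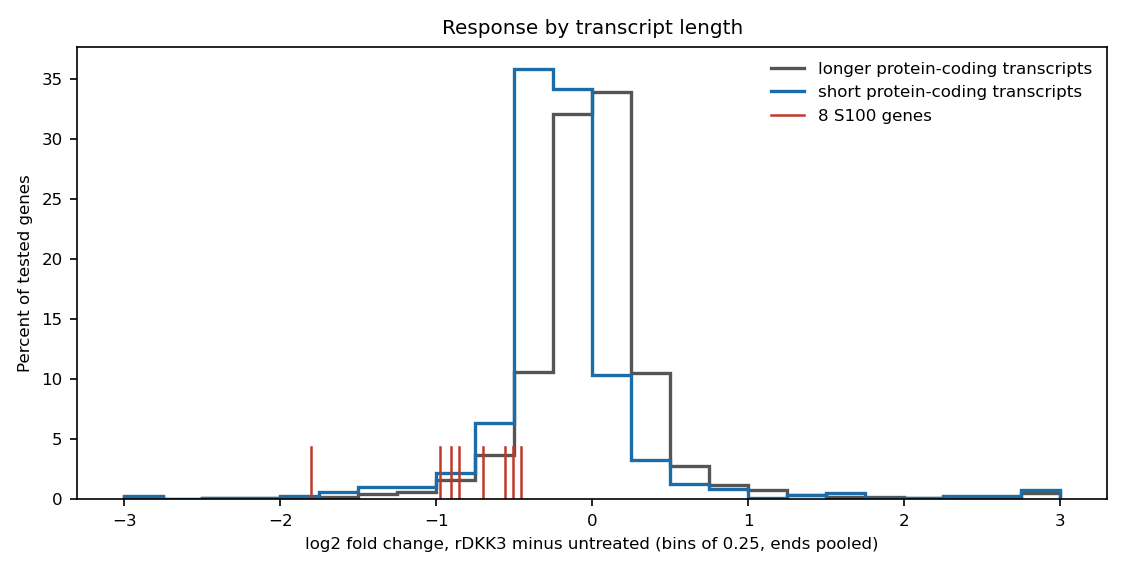
Percent of tested protein-coding genes per bin of edgeR's log2 fold change (rDKK3 minus untreated) for 822 short transcripts (blue) and longer ones (grey), with red ticks for the 8 S100 genes. The short transcripts are shifted to the left of the longer ones (medians -0.24 and 0.00), and the S100 genes range from -1.80 to -0.46.

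Fitted differences of other tested genes near the S100 cluster were mostly close to 0. Of the other genes that overlapped windows of 500 kb around S100a1 and S100a10, at least in part, 22 passed the filter. Among these, 21 were on the lower-coordinate side of S100a1 and 1 (Rplp0-ps1) on that side of S100a10. Of the 22, 4 were lower in all 3 lines, near the 18.2% of all genes. Their median fitted difference was -0.07 (log2), with a range of -0.42 (Nup210l) to 0.36 (Dennd4b). Over the 12 libraries edgeR called Dennd4b higher and Gm56783 lower, and no other of the 22, against 7.95% of all genes called higher and 10.1% lower. Chtop, whose gene start lies 4.89 kb from that of S100a1 toward lower coordinates, had a fitted difference of -0.10 ± 0.10. Ilf2, farther out on the same side, had -0.05 ± 0.12. Between lines, 9 of the 22 neighbours were called, against 35.3% of all genes.

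**Figure D5:**
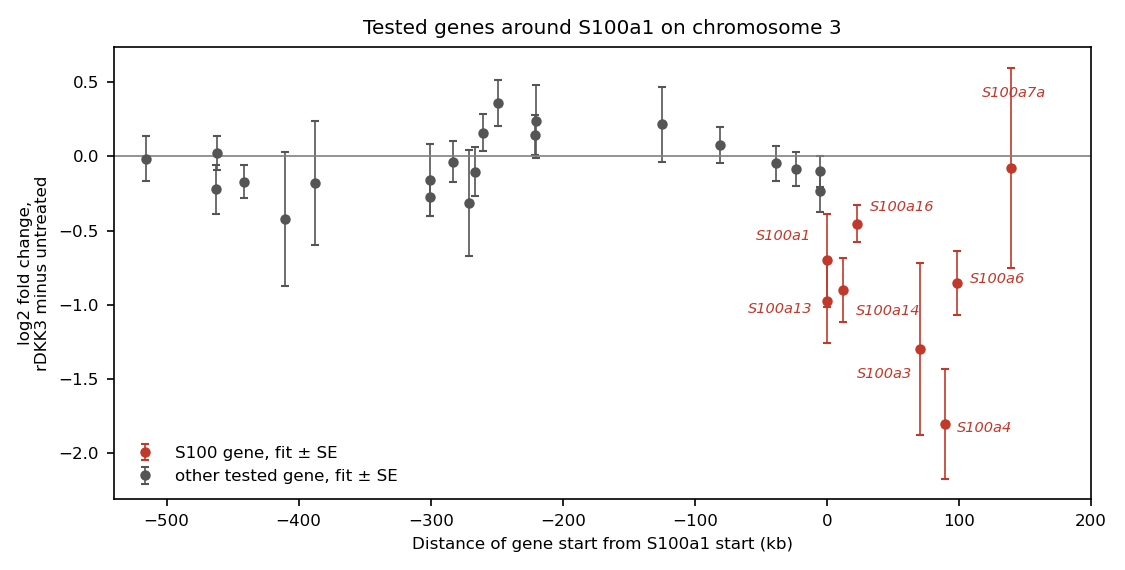
EdgeR's log2 fold change (rDKK3 minus untreated, ± SE over 3 lines) against the distance of the gene start from that of S100a1 in kilobases, red for S100 genes and grey for other tested genes. Grey points lie between -0.42 and 0.36, and 7 of the 8 red points lie at or below -0.46, S100a7a (-0.08) being the exception.

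Of the other S100 genes in the table, S100b, S100a3, S100a7a and S100g passed the filter. S100b, the glial member that lies outside the chromosome 3 cluster, was highest in line DDKC_9804, at 27.6 CPM untreated and 13.1 with rDKK3, against 5.62 and 3.88 in line DDKC_9750 and 2.71 and 1.51 in line DDKC_9790. It differed between lines (edgeR adjusted p = 0.00372) and had a fitted rDKK3 difference of -0.83 ± 0.20 (log2, adjusted p = 0.578 on summed counts and 0.000747 over 12 libraries). S100a3 had 109 counts in all libraries and a fitted difference of -1.30 ± 0.58 (log2), and S100a7a had 202 counts and -0.08 ± 0.68. S100g went from 3 to 19 counts in line DDKC_9750 and had 0 counts in treated and 3 in untreated line DDKC_9804, with 0 in line DDKC_9790. Its fitted difference was above 0 (2.57 ± 1.57, log2), on 25 counts in all. S100z had 11 counts in all, S100a2 6, S100a5 1 and S100a7l2 0.

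Partners of the S100 proteins were followed as 3 lists. Of 15 annexins and S100A10 partners tested, 9 were lower in all 3 lines, against 18.2% of all genes. Over the 12 libraries edgeR called 8 of them lower and none higher, against 10.1% and 7.95% of all genes, and none passed on summed counts. Their median fitted difference was -0.25 (log2, against -0.01 over all genes). Anxa2, which forms a tetramer with S100A10, was at 2009, 1880 and 2611 CPM in untreated lines DDKC_9750, DDKC_9790 and DDKC_9804 and at 1369, 1442 and 1659 CPM with rDKK3, without overlap (-0.53 ± 0.13, edgeR adjusted p = 0.578 on summed counts and 0.000274 over 12 libraries). Plat, the tissue plasminogen activator whose activity S100A10 supports at the cell surface, was at 305, 51.9 and 58.1 CPM untreated and 221, 27.6 and 32.4 with rDKK3 (-0.74 ± 0.13). Anxa5, Anxa1, Anxa3, Anxa6, Anxa7 and Anxa13 were the other genes called lower over 12 libraries. Ahnak, the large scaffold bound by S100A10 and annexin A2, was at 0.02 ± 0.16 (log2). Between lines, 10 of the 15 were called, against 35.3% of all genes.

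Among receptors, Bsg was called lower over 12 libraries (-0.69 ± 0.14, log2, edgeR adjusted p = 0.00652; on summed counts -0.68 ± 0.22, adjusted p = 0.578), from 2289 to 1136 CPM in line DDKC_9790, 928 to 479 in line DDKC_9804 and 1483 to 1414 in line DDKC_9750. Ager (0.35 ± 0.49) and Tlr4 (-0.04 ± 0.16) were not called in either fit, and Cd36 had 11 counts in all. Among intracellular partners, 10 of 13 were tested and their median was 0.01. Myh14, Fgf1 and Sugt1 were called lower and Il1a higher over the 12 libraries, where 10.1% of all genes were called lower and 7.95% higher, and none on summed counts. Fgf1, which S100A13 helps to release, was at 36.4, 57.7 and 4.68 CPM untreated and 30.4, 30.5 and 1.07 with rDKK3 in lines DDKC_9750, DDKC_9790 and DDKC_9804 (-0.92 ± 0.32, log2, SE). Il1a, the other S100A13 cargo, had 67 counts in all libraries. Myh9, the myosin heavy chain that S100A4 binds, was at 0.15 ± 0.13, and Trp53 at -0.01 ± 0.12.

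Markers of cell types were followed as 5 lists, whose counts over the 12 libraries stand against 10.1% of all genes called lower and 7.95% higher. Of 9 ductal and epithelial markers tested, 5 were called lower (Krt19, Krt8, Krt18, Krt7 and Spp1) and 1 higher (Sox9) over the 12 libraries, with a median of -0.35 (log2). Their summed level was 12590 to 37360 CPM untreated and 9501 to 21270 with rDKK3. Of 10 fibroblast and stellate markers, 5 were tested and Pdpn and Acta2 were called higher over 12 libraries. Both calls rest on line DDKC_9750, since Pdpn was at 0 to 0.0541 CPM and Acta2 at 0 to 0.371 CPM in the other lines, and Acta2 in line DDKC_9804 was 0.371 CPM untreated and 0 with rDKK3. The summed level of the list was 7.64 to 51.3 CPM untreated and 5.75 to 139 with rDKK3, the highest being treated line DDKC_9750, where Acta2 was at 127 CPM. Col3a1, Dcn, Lum and Fap had 16, 2, 1 and 0 counts. Of 10 myeloid and neutrophil markers, 5 had no count in any library, 2 were tested, and Cd68 was called higher, with a summed level of 9.54 to 29.2 CPM untreated and 10.5 to 46.1 with rDKK3. Of the endothelial and acinar lists 1 gene each was tested (Kdr and Cela1), neither called for rDKK3, and the summed levels were 1.40 to 15.3 and 0.799 to 12.2 CPM untreated and 0.971 to 17.5 and 1.31 to 12.04 with rDKK3. The part of these cell types in the S100 differences was not tested.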

How the data were processed

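RNA libraries of 3 DDKC lines, untreated or rDKK3-treated, were prepared by the authors with a directional kit and sequenced in 2 libraries per line and condition. According to the submitters' notes and the study's methods, the authors aligned read pairs to GRCm39 with STAR 2.7.9a, counted alignments over annotated exons by strand in Union mode, which drops reads that hit more than 1 feature, and aggregated them to genes. The values are raw counts as deposited, without normalization. The 92 spike-in entries without gene name held 0% of counts. Total counts per library were 3822987 to 24541083, so that 3 counts, the floor used, equal 0.127 to 0.755 CPM after TMM scaling. Intervals and floors cover counting error only.

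Libraries of a line and condition were summed, and edgeR 4.0.16 (R 4.3.3) was run with TMM, line and treatment in a quasi-likelihood test, filterByExpr over the 6 groups (15165 genes kept), Benjamini-Hochberg adjustment over all of them and a threshold of 0.05. The study's methods name DESeq2 without a formula. DESeq2 1.42.0, RLE, no filter, thinning, 12 separate libraries and omission of lines or series were alternatives. The pairing comes from the line (same-line deviations correlated at 0.805 or more). Log2 CPM used a prior count of 2. Standard errors are the log2 fold change divided by the root of F. Lengths were taken from the best supported protein-coding transcript of GENCODE M39 clipped to the counted gene's bounds, and promoters from RefSeq (GRCm38.p6), whose coordinates were not mixed with those of the counts. All 10 S100 genes are named, the partner, neighbour and marker genes come from written lists, and members, lists and tests were chosen with earlier results of these data known. The full genotype of the mice is not reported here.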

Additional observations from a re-analysis of the deposited data

Results flagged for a closer look

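Of the 8 followed S100 genes that were tested, S100a11 was the one whose lines moved in opposite directions with rDKK3. In line DDKC_9750 both library pairs were higher with treatment (0.0583 on the log2 scale for the summed counts), whereas both pairs were lower in lines DDKC_9790 and DDKC_9804. The difference between lines was not tested, since the summed design leaves no residual for an interaction of line and treatment.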

How the results depend on the processing

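All 104 alternative values of the 8 fitted rDKK3 differences were negative, 18 of them past the threshold and 86 not, as on summed counts. The alternatives refit the same libraries or part of them, so their shared sign is not separate support. The number of genes called for rDKK3 was 1 as reported, 2744 over 12 libraries with the line, 3124 with the library series added, 103 with DESeq2 and 90 without the filter, and 0 in the fits with no replicate block, summed or over 12 libraries. Leaving out 1 line or 1 library series gave 0 to 6 genes. The same omissions of a series took the 12-library count to between 1 and 6, and dropping the line block took it to 0. S100 genes called lower were 7 over 12 libraries, 8 with the series, 2 with DESeq2 and 1 (S100a4) without the filter. Between lines, treating the 12 libraries as separate gave 11790 genes in place of 5348, and for lines DDKC_9750 and DDKC_9790, DDKC_9750 and DDKC_9804, and DDKC_9790 and DDKC_9804 it gave 9384, 8329 and 8744. S100a6 joined the 5 S100 genes called between lines in that fit (edgeR adjusted p = 0.0101), and no other alternative changed a call between lines of an S100 gene. The S100a4 difference ran from -2.30 to -1.36 and that of S100a1 from -0.98 to -0.25 over the alternatives. The ends of both ranges were fits that left out a line. With 3 lines, no S100 difference passed in edgeR on summed and filtered counts, including the largest (S100a4, -1.80), and S100a8 and S100a9 were below what this depth resolves. Causes of these dependencies were not tested.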
